A study of Arabidopsis thaliana with 4 samples.

Results

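The 44 genes described here are the photosynthesis and NDH genes of the Arabidopsis plastid genome. Their rule uses annotation and no measured value, although it was set with earlier results of these data known. It takes probe sets whose gene lies on the plastid genome and has a symbol starting with psa, psb, pet, ndh or rbcL, or with atp followed by a capital letter. This gave 44 of the 22746 probe sets that are not array controls, 1 for each gene. They make up 5 genes of photosystem I, 15 of photosystem II, 6 of the cytochrome b6f complex, the Rubisco gene rbcL, 6 of the ATP synthase and 11 of the NDH complex. For 43 of them the probe set lists 1 gene identifier. The ndhB probe set lists 2, which are the copies of that gene in the inverted repeat of the plastid genome, so their transcripts are measured together.

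Transcript signals came from 4 Affymetrix ATH1 arrays, 2 for sorted protoplasts and 2 for whole roots. All RNA was from seedling roots of the ecotype Columbia, 6 days after germination, moved for 1 hour to medium with 140 mM NaCl, so the salt treatment is shared by both groups and no array holds untreated roots. For the sorted protoplasts the root walls were digested after the salt treatment and the released cells were passed through a cell sorter without selecting any of them. For the whole roots RNA was taken from intact roots. The comparison asks what protoplasting and sorting do to transcript levels. The labels do not say that the replicates are separate plantings, so the spread behind each p-value is that between the samples at hand and could be technical.

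Root plastids are mostly colourless, yet they carry the same genome as leaf chloroplasts. Its photosynthesis genes code for the core subunits of the thylakoid complexes, and nuclear genes code for the rest. Most of these genes are read by a bacterial-type RNA polymerase whose core is itself coded in the plastid, and many lie in groups that are transcribed together and then cut into shorter messengers. Plastid messengers mostly lack stable poly(A) tails, and added tails mark plastid RNA for breakdown.

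All 44 genes had a higher mean log2 signal in sorted protoplasts. The median log2 difference, sorted protoplasts minus whole roots on the log2(signal + 16) scale, was 2.1, with a range of 0.33 to 4.54, against a median of -0.11 over all 22746 probe sets. Both sorted-protoplast arrays lay above both whole-root arrays for 40 of the 44 genes, which was so for 18.6% of all probe sets. The exceptions were psaA, psbD, psbT and atpI. In limma's test, with Benjamini-Hochberg adjustment over all probe sets and no signal filter, 15 of the 44 rose and 0 fell, against 1.73% of all probe sets called higher and 0.602% called lower. With 2 arrays a group many large differences miss this threshold: of the 29 genes that did not pass, 16 had an adjusted p between 0.05 and 0.1. Unadjusted, 38 of the 44 had a p under 0.05 with a higher value in sorted protoplasts and 0 with a lower one, against 8.45% of all probe sets higher. The other 6 were psaA, psbB, psbD, psbT, atpI and ndhG.

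The number of calls depends on the fit. When the 40% of probe sets with the lowest mean signal were left out, 33 of the 38 genes still tested rose and 0 fell, against 6.38% of the 13647 probe sets tested there. The genes below that limit were psaA, petG, atpI, ndhF, ndhH and ndhB, and genes that pass it through high signal in 1 group are favoured. With either of the whole-root arrays left out, 0 probe sets of any kind were called by limma. Without whole-root replicate 1, 38 of the 44 genes were still higher at an unadjusted p under 0.05 against 5.65% of all probe sets, and their median was 2.15. Without whole-root replicate 2 the values were 33 genes, 6.66% and 2.13. Without sorted-protoplast replicate 1 the count was 23 genes, against 2.33% of all probe sets, and the median 2.51. Without sorted-protoplast replicate 2 it was 12 genes, against 1.43%, and the median 1.82. Of the 15 genes called with all arrays, 12 were called whichever sorted-protoplast array was left out, and 10 were called under each of the 9 alternative fits that use all 4 arrays and the same threshold: psaB, psaI, psaJ, psbA, psbI, psbK, petB, atpA, atpF and ndhI. The counts of 12 and 10 were not made over all probe sets. At an adjusted p under 0.01 limma called 0 of the 44, against 13 higher and 2 lower of all 22746 probe sets.

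**Figure D1:**
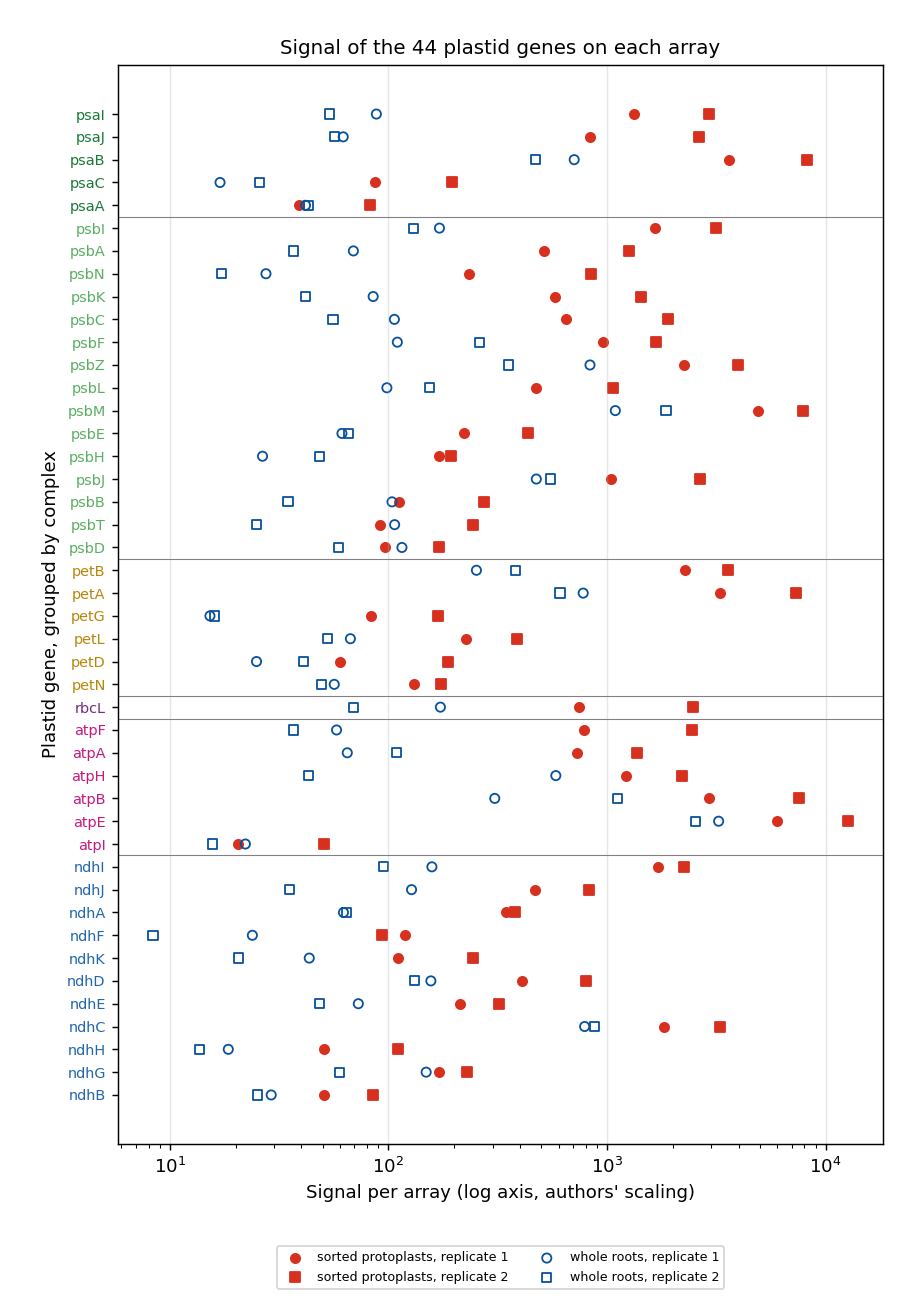
Signal of each of the 44 genes (rows, grouped by complex) on each array, on a log axis. Filled red points are the 2 sorted-protoplast arrays and open blue points the 2 whole-root arrays. For 40 genes the red points lie to the right of both blue points, and psaA, psbD, psbT and atpI overlap.

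Signal also differed between arrays of the same group. The median log2(signal + 16) of the 44 genes was 8.93 and 9.92 on sorted-protoplast replicates 1 and 2, and 6.77 and 6.15 on whole-root replicates 1 and 2. Sorted-protoplast replicate 2 had the higher signal for 43 of the 44 genes, with ndhF as the exception. Whole-root replicate 1 had the higher signal for 29. Other array-wide values differed too, and their part in the plastid signals was not tested. Over the 18 probe sets of the hybridization spike-ins the log2 signal averaged 9.32 and 9.99 on the sorted-protoplast arrays. On the whole-root arrays it averaged 9.42 and 8.96. These probe sets read fewer spiked transcripts than 18. The 25S ribosomal RNA control read 5388 and 9658 on the sorted-protoplast arrays, against 4329 and 2809 on the whole-root arrays. With arrays scaled on the spike-ins the median of the 44 genes was 1.72, against -0.42 for all probe sets, and 14 rose, against 1.12% of all probe sets. The ratio of 3′ to 5′ GAPDH signal, a sign of RNA integrity, was 3.45 and 9.96 in sorted protoplasts. In whole roots it was 15.0 and 4.56, so it did not separate the groups. Another pair of GAPDH controls read 2995 and 3180 at 3′ and 1876 and 1675 at 5′ in sorted protoplasts. In whole roots that pair read 3506 and 3780 at 3′ and 612 and 2065 at 5′. Whole-root replicate 1 had the highest ratio in both pairs.

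In photosystem I, which passes electrons to ferredoxin, 3 of 5 genes rose, against 1.73% of all probe sets called higher. psaI, which codes for a small membrane-spanning subunit, had signals of 1327 and 2929 in sorted protoplasts, against 88.1 and 53.8 in whole roots. Its log2 difference of 4.54 ± 0.45 (SE, n = 2 arrays each, limma adjusted p = 0.0139) was the highest of the 44. psaJ, another small membrane subunit, rose by 4.32 ± 0.54. psaB codes for a large core protein that binds the reaction centre chlorophylls. It had 3600 and 8209 in sorted protoplasts and 708 and 472 in whole roots, and rose by 3.20 ± 0.47 (adjusted p = 0.0317). The gene for its partner in the core, psaA, was different. psaA had 38.9 and 82.3 in sorted protoplasts, against 41.8 and 42.9 in whole roots, and its difference of 0.33 (95% interval -0.63 to 1.29) did not pass and was the lowest of the 44. The sign of the psaA difference turned with spike-in scaling (-0.03) and without sorted-protoplast replicate 2 (-0.09). psaC, whose product carries iron-sulphur clusters, did not pass at 1.99 ± 0.45.

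In photosystem II, the water-splitting complex, 6 of 15 genes rose, against 1.73% of all probe sets. They were psbI, psbA, psbN, psbK, psbC and psbF. psbI, a small subunit next to the reaction centre, had 1654 and 3159 in sorted protoplasts, against 171 and 131 in whole roots, a log2 difference of 3.80 ± 0.39 (adjusted p = 0.0139). psbA codes for the D1 reaction centre protein, which is replaced often in illuminated leaves. It had 513 and 1261 in sorted protoplasts, against 69.2 and 36.8 in whole roots, a log2 difference of 3.61 ± 0.50 (adjusted p = 0.0269). The arrays of the groups lay well apart for both genes. psbN, which codes for an assembly factor and lies on the opposite strand within the psbB group, had 235 and 849 in sorted protoplasts and 27.6 and 17.3 in whole roots, a log2 difference of 3.61 ± 0.60 (adjusted p = 0.0426).

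psbD codes for the D2 protein, the partner of D1. Its signals were 96.0 and 170 in sorted protoplasts, against 115 and 59.2 in whole roots, so the groups overlapped, with a log2 difference of 0.54 (95% interval -0.53 to 1.61). psbT, a small subunit, also overlapped, with 91.1 and 245 in sorted protoplasts, against 107 and 24.8 in whole roots, and a log2 difference of 1.24 (95% interval -0.35 to 2.83). The core antenna genes psbC and psbB had log2 differences of 3.59 ± 0.56, which passed, and 1.3 ± 0.58, which did not. psbM, a small subunit, had 4899 and 7857 in sorted protoplasts, against 1091 and 1862 in whole roots, a log2 difference of 2.11 ± 0.43 that missed the threshold (adjusted p = 0.0652) although the groups did not overlap. Of the subunits of cytochrome b559, psbF rose by 2.78 ± 0.48 and psbE had 2.04 ± 0.40 (adjusted p = 0.0634). The other genes that did not pass, psbZ, psbL, psbH and psbJ, had differences between 1.67 and 2.42. For each of them, as for psbM, both sorted-protoplast arrays lay above both whole-root arrays, which was so for 18.6% of all probe sets.

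The cytochrome b6f complex links the photosystems, and 2 of its 6 genes rose, against 1.73% of all probe sets. petB, the cytochrome b6 gene, had 2276 and 3591 in sorted protoplasts, against 253 and 383 in whole roots, a log2 difference of 3.13 ± 0.37 (adjusted p = 0.0189). petA, the cytochrome f gene, had 3288 and 7316 in sorted protoplasts and 778 and 610 in whole roots, and rose by 2.80 ± 0.45 (adjusted p = 0.0387). The smallest difference of the complex was that of petN, a small subunit, with 131 and 175 in sorted protoplasts and 56.6 and 49.3 in whole roots (1.28 ± 0.34, adjusted p = 0.119). petD, petG and petL lay between, at 1.37 to 2.09, and did not pass. For all 6 genes both sorted-protoplast arrays lay above both whole-root arrays, which was so for 18.6% of all probe sets.

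rbcL codes for the large subunit of Rubisco, the enzyme that fixes carbon dioxide. It had 748 and 2476 in sorted protoplasts, against 173 and 69.6 in whole roots. The log2 difference of 3.44 ± 0.64 was among the larger ones, but its spread was wide as well, and it missed the threshold (adjusted p = 0.0553).

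Of the 6 plastid genes of the ATP synthase 2 rose, atpF and atpA, against 1.73% of all probe sets. atpF codes for a stalk subunit in the membrane part. It had 781 and 2449 in sorted protoplasts, against 58.0 and 36.9 in whole roots, a log2 difference of 4.49 ± 0.56 (adjusted p = 0.021). atpA, a catalytic-head subunit, rose by 3.34 ± 0.42. At the other end, atpI, the gene of the membrane subunit beside the rotating ring, had 20.5 and 50.6 in sorted protoplasts and 22.2 and 15.7 in whole roots, a log2 difference of 0.50 (95% interval -0.40 to 1.4). atpE, the epsilon subunit, had 5974 and 12644 in sorted protoplasts and 3239 and 2536 in whole roots. Its log2 difference was 1.60 ± 0.47 (adjusted p = 0.142), without overlap, as for 18.6% of all probe sets in this direction. atpH, which codes for the ring subunit, shows how far whole-root arrays could differ. It read 1227 and 2205 in sorted protoplasts, but 583 and 43.1 in whole roots, and its difference of 3.14 ± 1.01 did not pass. atpB, the beta subunit, had 2.97 ± 0.70 (adjusted p = 0.0891).

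The NDH complex returns electrons from ferredoxin to the plastoquinone pool. Of its 11 genes 2 rose, ndhI and ndhA, against 1.73% of all probe sets. ndhI, which codes for an iron-sulphur subunit, had 1718 and 2245 in sorted protoplasts, against 158 and 94.8 in whole roots. Its log2 difference of 3.83 ± 0.35 had the smallest adjusted p of the 44 genes (0.0127). ndhA, a membrane subunit, had closely matching arrays, with 344 and 379 in sorted protoplasts and 62.3 and 64.5 in whole roots, and rose by 2.25 ± 0.31 (adjusted p = 0.026). ndhJ had 470 and 830 in sorted protoplasts and 128 and 35.3 in whole roots, a log2 difference of 2.90 ± 0.56 (adjusted p = 0.0595). ndhC, a membrane subunit, had 1817 and 3270 in sorted protoplasts, against 790 and 879 in whole roots, a log2 difference of 1.53 ± 0.38 (adjusted p = 0.099). The lowest of the complex were ndhB, with 50.8 and 84.7 in sorted protoplasts and 29.1 and 25.2 in whole roots (0.93 ± 0.36), and ndhG, with 170 and 228 in sorted protoplasts and 149 and 59.7 in whole roots (0.93 ± 0.46). For all 11 genes both sorted-protoplast arrays lay above both whole-root arrays, as for 18.6% of all probe sets. ndhD, ndhE, ndhF, ndhH and ndhK had differences between 1.52 and 1.96 and did not pass.

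**Figure D2:**
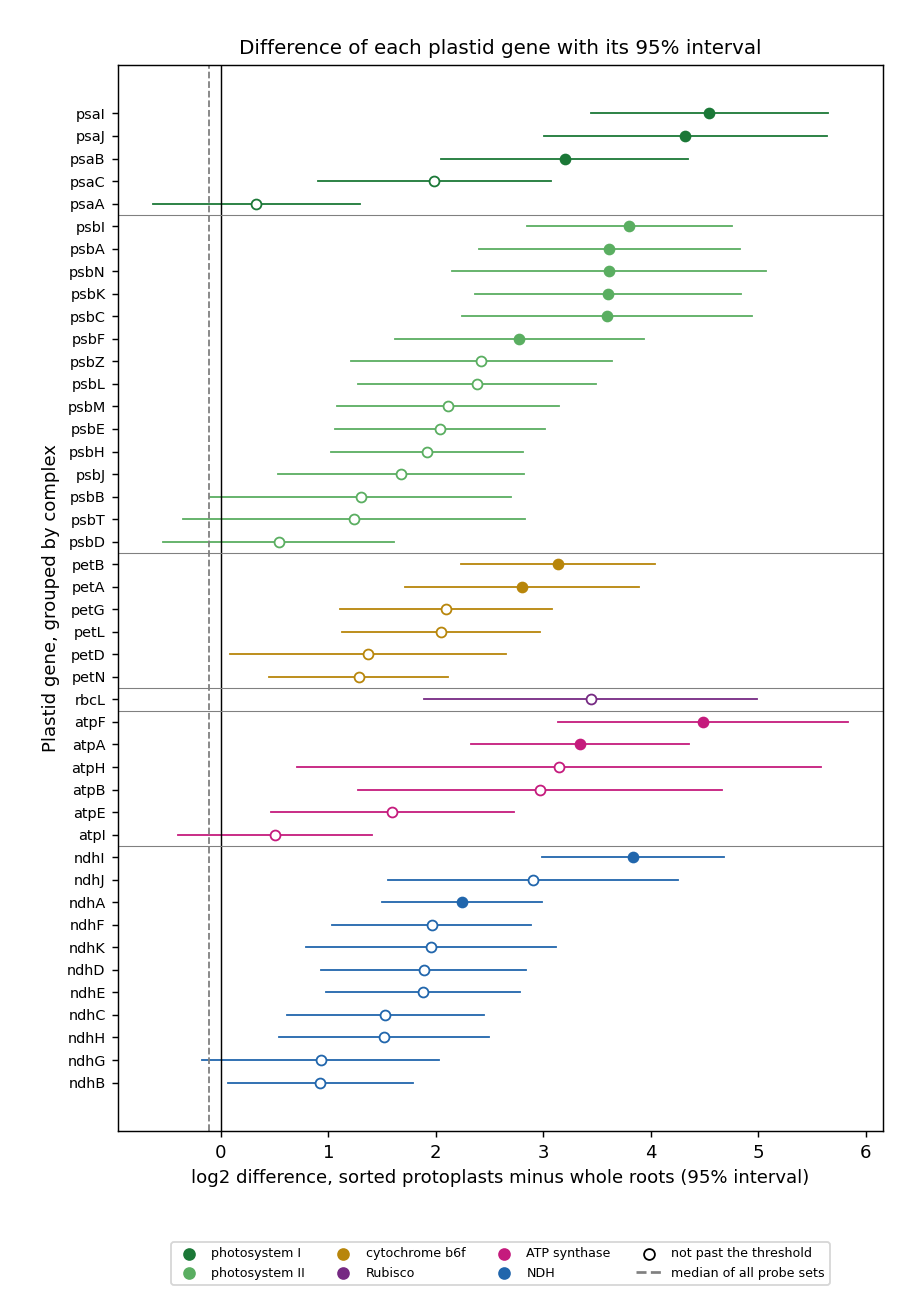
Log2 difference of each gene, sorted protoplasts minus whole roots, with its 95% interval from limma, grouped by complex. Filled points are the 15 genes past an adjusted p of 0.05, open points the 29 that were not, and the dashed line is the median of all probe sets (-0.11). The intervals of 38 genes lie above 0.

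Set side by side, the complexes had median log2 differences of 3.20 for photosystem I, 2.38 for photosystem II, 2.07 for cytochrome b6f, 3.06 for the ATP synthase and 1.89 for NDH, with 3.44 for rbcL. The ranges overlapped widely, from 0.33 to 4.54 in photosystem I and from 0.93 to 3.83 in NDH. The difference between complexes was not tested, since genes of a complex are not replicates of it. Across the 44 genes the SD of the log2 differences was 1.1, and the median SE of a single gene was 0.45.

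The order of the genes was similar in separate arrays. With sorted protoplasts minus whole roots computed within the replicate 1 arrays and again within the replicate 2 arrays, Pearson's r over the 44 genes was 0.695 and Spearman's rho 0.69. With the whole-root arrays exchanged they were 0.702 and 0.676. These pairs share no array, but genes within an array share its RNA and scaling, so the values are a description across genes. The median difference was 1.71 in the replicate 1 arrays and 2.58 in the replicate 2 arrays, and for 40 of the 44 genes the difference in the replicate 2 arrays was the larger. psaA, atpI and psbD were near the low end in both, and psaI and atpF near the high end.

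**Figure D3:**
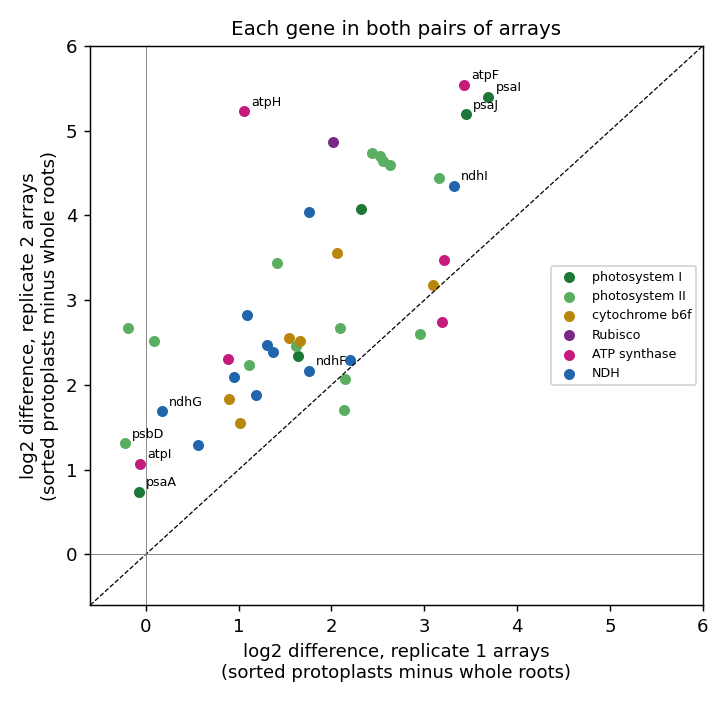
Log2 difference of each gene within the replicate 1 arrays (x axis) and within the replicate 2 arrays (y axis), sorted protoplasts minus whole roots, coloured by complex, with the line of equal values dashed. Most genes lie above the line (medians 1.71 and 2.58), and psaA, atpI and psbD lie at the lower left while psaI and atpF lie at the upper right.

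Log2 differences varied within groups of genes known to be transcribed together. The 37 genes in 11 such groups form 26 pairs of successive genes among the 44. The absolute gap between the log2 differences of successive genes had a median of 1.05, against 1.12 over all 946 pairs of the 44 genes, and 13 of the 26 gaps were over 1. psaA and psaB, the first genes of their group, were 2.87 apart. On the log2 scale the ratio of psaB to psaA was 6.04 and 6.39 on the sorted-protoplast arrays and 3.65 and 3.05 on the whole-root arrays. Such a ratio depends on the probes, so its level is not read here. Its change between groups reflects the transcripts only if both probe sets respond alike, which was not tested. psbD and psbC, whose reading frames overlap, were 3.05 apart, with a log2 ratio of psbC to psbD of 2.57 and 3.37 in sorted protoplasts, against -0.10 and -0.07 in whole roots.

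The widest group was atpI-atpH-atpF-atpA, with 0.50 for atpI and 4.49 for atpF. In the longest group, ndhH-ndhA-ndhI-ndhG-ndhE-psaC-ndhD, ndhI and the next gene, ndhG, were 2.90 apart, and the log2 ratio of ndhG to ndhI was -3.22 and -3.21 in sorted protoplasts and -0.08 and -0.55 in whole roots. In the group of psbB, psbT, psbH, petB and petD the difference was highest for petB (3.13) and lay between 1.24 and 1.92 for the others. In the psbK-psbI group psbK had 3.60 and psbI 3.80, and both rose. The ratio of successive genes separated the arrays of the groups in 17 of the 26 pairs. With 2 arrays a group, a ratio unrelated to the groups would separate them with a probability of 0.333. For the same reason the exact permutation test of a ratio cannot give a two-sided p below 0.333. Pairs share genes and arrays, so the count of 17 was not tested. psaA and atpI had low signals: 37.1% and 50.9% of probe sets read lower than psaA on the sorted-protoplast arrays and 36.1% and 35.5% on the whole-root arrays, and for atpI the shares were 26.1% and 41.1% on the sorted-protoplast arrays and 24.3% and 19.5% on the whole-root arrays. For low signals the added 16 shrinks a difference. With an offset of 1 the log2 differences were 0.41 for psaA and 0.76 for atpI. For psbD, with a difference of 0.54, the shares were 53.4% and 66.5% on the sorted-protoplast arrays and 57.4% and 41.6% on the whole-root arrays. For ndhB, with 0.93, they were 41.7% and 51.5% on the sorted-protoplast arrays and 29.0% and 26.3% on the whole-root arrays. Whether low signal accounts for the small differences of psaA and atpI was not tested.

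**Figure D4:**
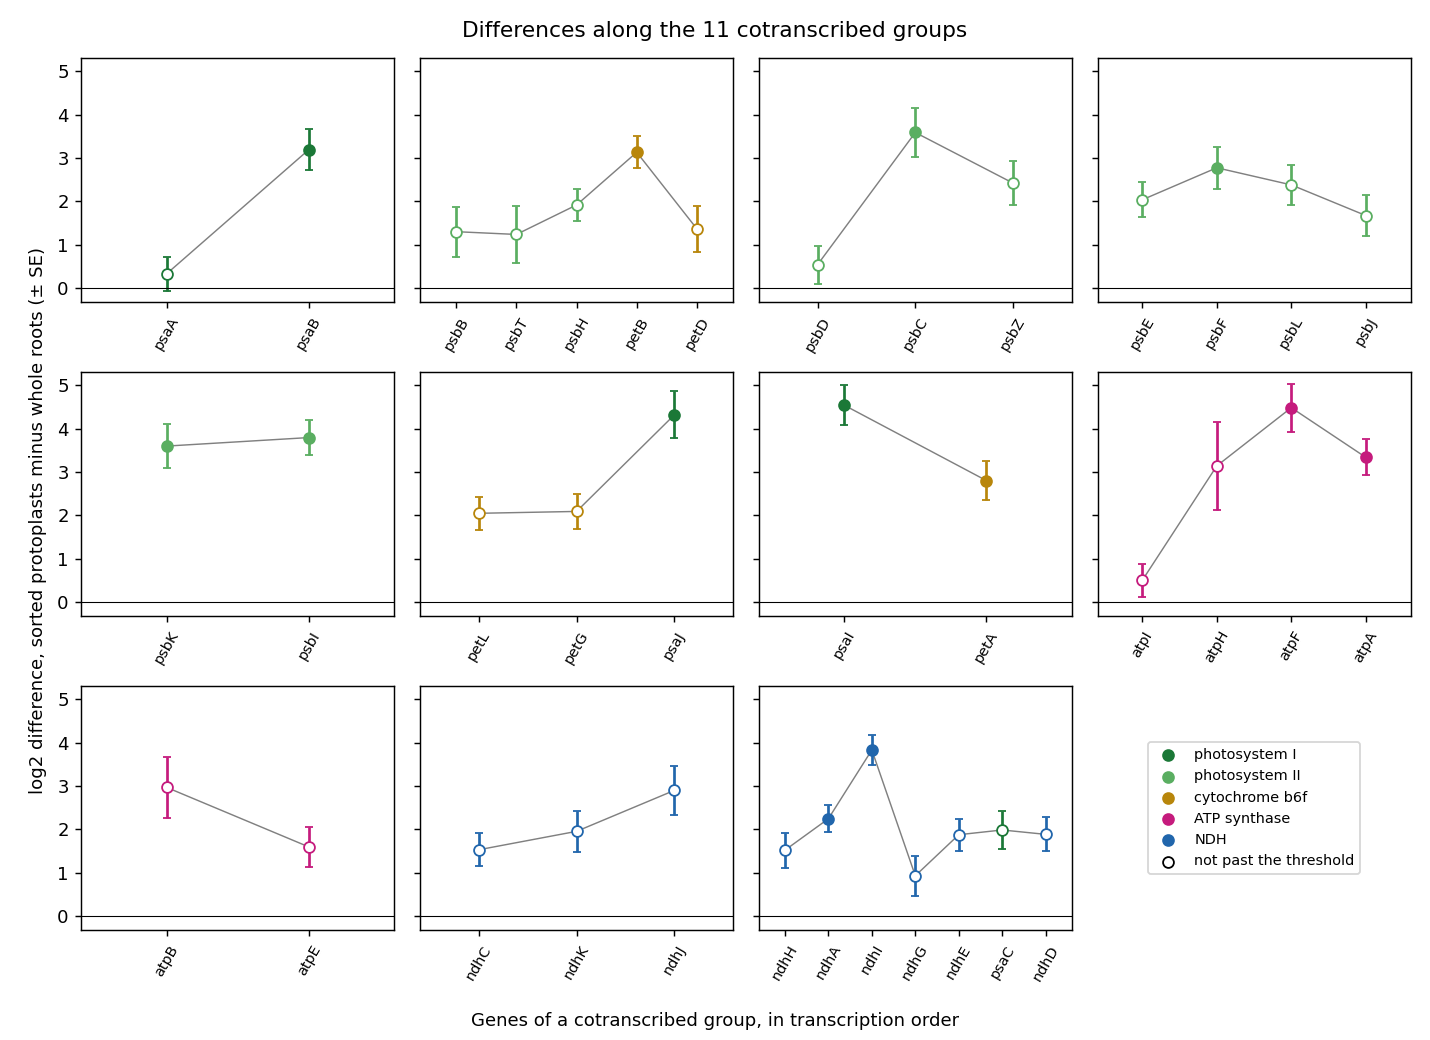
Log2 difference with its SE (y axis), sorted protoplasts minus whole roots, of the genes in each of 11 cotranscribed groups, in transcription order. Filled points passed the threshold. The steps from psaA (0.33) to psaB (3.20), psbD (0.54) to psbC (3.59) and ndhI (3.83) to ndhG (0.93) are among the largest, and psbK and psbI are level.

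No nuclear gene of the same complexes passed the test without a signal filter. Of 74 such genes listed, 13 had a probe set with that single gene name. In that limma test 0 of the 13 rose and 0 fell, against 1.73% of all probe sets called higher and 0.602% called lower. At such low shares a count of 0 among 13 says little. Unadjusted, 0 were higher and 3 lower at a p under 0.05, against 8.45% of all probe sets higher and 10.8% lower. Their median log2 difference was -0.67, against -0.11 over all probe sets. Of the 13, 11 were below 0, as were 13380 of all 22746 probe sets. Both sorted-protoplast arrays lay below both whole-root arrays for 10 of the 13, which was so for 32.7% of all probe sets. With the signal filter 1 of the 10 tested fell, against 4.11% of all probe sets tested there. NdhS, a nuclear NDH subunit that takes part in ferredoxin binding, had the lowest difference, with 38.6 and 73.9 in sorted protoplasts and 155 and 166 in whole roots (-1.33 ± 0.38, adjusted p = 0.135). LHCB4.3, a photosystem II antenna gene, had the highest, at 0.18 ± 0.33. As markers of green shoot tissue, 4 of 24 listed light-harvesting, Rubisco small subunit and activase genes could be read, LHCB4.1, LHCB4.2, LHCB4.3 and RCA. Their summed signal was 447 and 284 on the sorted-protoplast arrays and 509 and 624 on the whole-root arrays. The lowest single value was 39.2, for LHCB4.2 on sorted-protoplast replicate 2, where the array median was 79.0. Whether these signals lie above background was not tested. Of the 31 nuclear genes for plastid transcription and RNA processing listed, 2 had a probe set, with differences of -0.37 and -0.44 that did not pass.

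Of the 19 root cell type markers listed, 5 had a probe set: the root hair genes EXPA7 and EXPA18 and the stele and xylem genes LHW, PHV and IRX15. The summed root hair signal was 282 and 372 on the sorted-protoplast arrays, against 1348 and 1812 on the whole-root arrays, and the stele and xylem sum was 631 and 402 on the sorted-protoplast arrays, against 313 and 334 on the whole-root arrays. Of the root hair genes EXPA18 fell, with a log2 difference of -2.39 (limma adjusted p = 0.021 without a signal filter). EXPA7 had -1.95 and did not pass (adjusted p = 0.0553). Within the stele and xylem sum LHW had a log2 difference of 0.04, PHV 0.65 and IRX15 1.46, none of which passed without the filter. With the signal filter EXPA18 and EXPA7 fell (adjusted p = 0.00301 and 0.0135) and IRX15 rose (0.0343). LHW and PHV did not pass there. Endodermis and root cap markers were not measured under a single gene name. Fewer cells of a type and less RNA per cell cannot be told apart in these samples, and the part of the cell mixture in the plastid signals was not tested.

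The other genes of the plastid genome, for ribosomal proteins, RNA polymerase subunits and further functions, had 33 probe sets, of which 22 rose and 0 fell, with a median log2 difference of 3.15. Of 23 mitochondrial probe sets 1 rose and 0 fell, with a median of 2.34. Over all probe sets 1.73% were called higher and 0.602% lower. At an unadjusted p under 0.05, 32 of the other plastid and 18 of the mitochondrial probe sets were higher and 0 lower. The shares over all probe sets at that p were 8.45% higher and 10.8% lower. The gaps between these medians and that of the photosynthesis and NDH genes were not tested. Among the 100 probe sets with the highest log2 differences of all, 9 were photosynthesis or NDH genes of the plastid and 10 were other plastid probe sets.

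**Figure D5:**
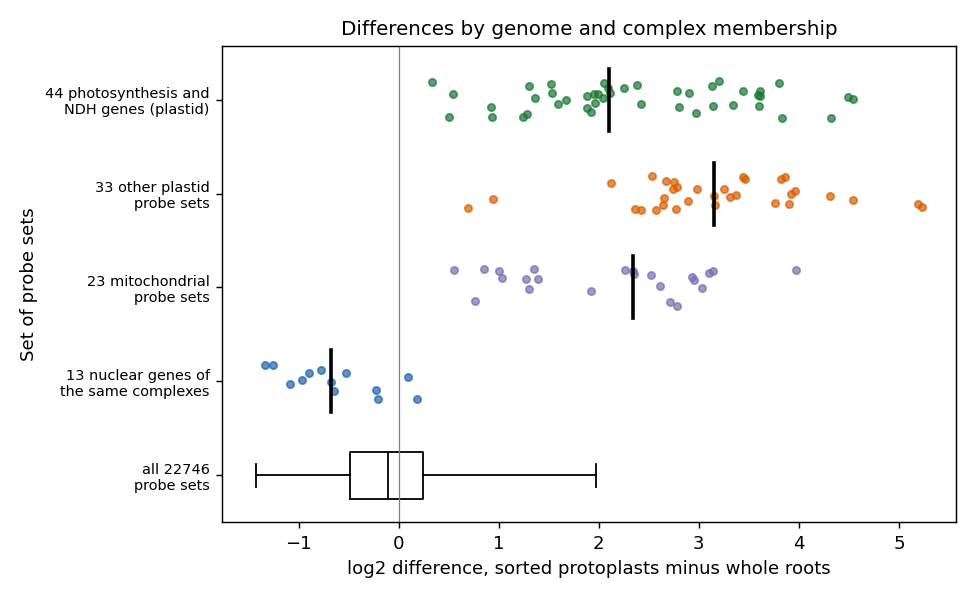
Log2 differences, sorted protoplasts minus whole roots (x axis), of the 44 photosynthesis and NDH genes, the 33 other plastid probe sets, the 23 mitochondrial probe sets and the 13 nuclear genes of the same complexes, with medians as bars (2.1, 3.15, 2.34 and -0.67). The box for all 22746 probe sets spans the middle quartiles, with whiskers to the outer 2.5% on each side. Points are shifted at random up and down for visibility.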

How the data were processed

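Per the labels' protocols, biotin-labelled RNA for the ATH1 arrays went through 2 cycles of amplification. The labels name no primer, and how the amplification treats RNA without a poly(A) tail was not tested. The authors deposited linear signal intensities, which the submitters' processing notes credit to MAS5. Each array had a trimmed mean (2% left out at each end) of 250.02 to 250.03, so the authors had scaled all 4 to the same level. All table columns were mapped to samples by accession.

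Genes came from the platform annotation and the TAIR10.1 RefSeq gene table. Of 22746 probe sets without controls, 13513 had 1 gene, 503 several and 8730 were unlisted. Mitochondrial genes missing from the RefSeq table were taken by symbol, and the arrays cannot separate them from nuclear copies. Coordinates are left out for want of a named build. Signals were transformed as log2(signal + 16) and compared with lmFit and eBayes of limma 3.58.1 (R 4.3.3; trended prior, 2 residual and 4.33 prior degrees of freedom), with no signal filter so that every gene is tested. The adjusted p is Benjamini-Hochberg's over all 22746, with a threshold of 0.05. The test was tried on simulated data. The genes and lists were chosen with earlier results of these data known. Values on every array are given for the gene with the largest and the one with the smallest difference in each complex (for photosystem II and NDH the 2 largest and the 2 smallest), the highest whole-root signal in each complex, and psbA, rbcL, psaA and psbN. Those of atpH, ndhA and NdhS were added after their values were seen.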

Additional observations from a re-analysis of the deposited data

How the results depend on the processing

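Each setting was changed alone. The crossed replicate numbers were chosen after seeing the data. The 15 genes called higher became 26 with an offset of 1, 33 with the 40% filter, 28 with crossed numbers as a block and 0 at an adjusted p under 0.01, and 0 to 23 with 1 array left out. The filtered fit tested 38 of the 44 genes and 13647 probe sets, and the other settings tested all 44 and all 22746. No setting gave a gene called lower. Over all probe sets the 394 higher and 137 lower calls became 600 and 266 with an offset of 1, 255 and 61 with an offset of 64, 870 and 561 with the filter, 255 and 238 with spike-in scaling, 623 and 263 with crossed numbers, 13 and 2 at the stricter threshold, and 0 to 530 and 0 to 111 with 1 array left out. The median for cytochrome b6f, 2.07, was 2.56 with an offset of 1, 1.38 with 64, 1.70 after scaling on spike-ins, and 1.66 to 2.48 when an array was dropped. That for NDH, 1.89, was 1.4 with an offset of 64 and 1.48 after scaling on spike-ins, and lay between 1.43 and 2.16 when an array was dropped. The cause was not tested. Same-numbered samples share only a number, and the correlation of their deviations was -0.131. Under a replicate block 19 of the 44 genes were called higher, with 504 higher and 175 lower calls in all. Of 610 comparisons of a gene with an alternative, 494 kept side and direction, 58 lost the call, 56 gained it and 2 reversed, both for psaA (-0.033 with spike-in scaling, and -0.089 to 0.75 when an array was dropped, lowest without sorted-protoplast replicate 2). Signals under 16 made up 19.6% to 22.1% of each array and limit what can be seen, as for 4 of the 44 genes in whole roots.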
